A study of Mus musculus with 28 samples.

Results

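Smooth muscle cells (SMCs) of the jugular vein and of the arteriovenous fistula (AVF) made from it are described here, 634 of the 16893 cells kept from 3 single-cell libraries. A cell was counted as an SMC when the summed unique molecular identifiers (UMIs, each 1 captured RNA molecule) of *Acta2*, *Tagln*, *Myh11*, and *Myl9* made up at least 1% of its total and those of the macrophage genes *Lyz2*, *C1qa*, and *C1qb* less than 0.5%. The cells were therefore selected on measured values of these 7 genes, and the levels of the 4 muscle genes in them are given as a description. Cells had 200 to 6000 genes and at most 10% mitochondrial UMIs.

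SMCs form the contractile layer of the vessel wall, in which actin (*Acta2*, *Actg2*) and smooth muscle myosin (*Myh11*) slide against each other once myosin light chain kinase (*Mylk*) has phosphorylated the regulatory light chain (*Myl9*). Many of these genes are read by serum response factor (*Srf*) together with its partner myocardin (*Myocd*) through a short DNA motif, the CArG box. SMCs are also known to lose contractile proteins and to make matrix after injury or a change of flow. Pericytes, the mural cells of small vessels, share many of these genes and carry others, such as *Rgs5*.

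The mice were male and female C57BL/6 animals, all with a subtotal nephrectomy, and the AVF was made by sewing the cut end of a jugular vein onto the side wall of the carotid artery. The untreated jugular vein of the other side was the control (contralateral vein), so control mice carried the nephrectomy too. For single cells, 10 vessels were pooled per library, with 1 library each for contralateral veins, early AVFs (day 5), and late AVFs (day 26). For bulk RNA, 25 vessels were sequenced singly, namely 7 contralateral veins, 8 early AVFs labelled day 3, 5 mid AVFs of day 10, and 5 late AVFs of day 21. The choice of cells used none of the bulk data.

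SMCs made up 41 of 6319 kept cells of the contralateral veins (0.649%, 95% interval 0.466 to 0.879), 175 of 4753 of the early AVFs (3.68%, 3.16 to 4.26), and 418 of 5821 of the late AVFs (7.18%, 6.53 to 7.87). The intervals are exact binomial and, like all single-cell intervals below, cover counting error only, since with 1 library per condition no test was possible. The libraries differed in depth, with a median of 6648 UMIs per SMC in contralateral veins, 21205 in early AVFs, and 23984 in late AVFs, and all kept cells differed likewise (2751, 8951, and 15425). No SMC barcode occurred in more than 1 library, while 5 or 6 kept barcodes were shared by each pair of libraries. The limit of 10% mitochondrial UMIs bore unequally on the libraries, because 49 cells of the contralateral veins met the muscle rule but lay above it, against 14 and 43 in early and late AVFs. The limit of 6000 genes left out a further 2, 69, and 96 cells that met the rule. With the first limit at 25%, a value chosen after seeing the data, the share in contralateral veins was 0.893%, and without the second the shares in AVFs were 4.36% and 8.02%.

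Near the limit of the rule, 2, 19, and 14 SMCs of the 3 libraries had a muscle share between 1% and 1.2%, and 15, 18, and 41 cells just outside it lay between 0.8% and 1%. The lowest shares inside were 1.02%, 1.00%, and 1.02%, and the nearest outside were 0.997%, 0.993%, and 0.997%. The condition on macrophage genes removed 0, 5, and 2 cells.

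*Acta2*, *Tagln*, and *Myh11* belong to the rule, which fixed their presence, so the label was checked against 3 smooth muscle markers outside it. *Cnn1*, which encodes calponin, was found in 27, 168, and 392 cells. *Itga8*, an integrin subunit, was found in 25, 166, and 385 cells, and its matrix ligand nephronectin (*Npnt*) in 15, 161, and 391. Levels below are CPM, the UMIs of a gene summed over the SMCs of a library per 1000000 UMIs of those cells. Summed over their lists, 7 endothelial genes reached 210, 94.4, and 62.8 CPM in contralateral, early, and late SMCs, 7 macrophage genes 72.7, 244, and 156 CPM, and 4 T cell genes 14.0, 0.543, and 4.58 CPM. The 5 neutrophil genes summed to 8.39, 203, and 46.5 CPM in SMCs and to 512, 4930, and 699 CPM in the other kept cells. In the other kept cells the endothelial list summed to 851, 90.6, and 41.4 CPM, so the sum in AVF SMCs was not below it. In early and late SMCs most of the sum was *Pecam1* (40.2 and 17.6 CPM) and *Flt1* (49.9 and 41.5 CPM), against 27.8 and 14.3 CPM and 10.4 and 5.78 CPM in the other cells. The other 5 genes, *Cdh5*, *Cldn5*, *Vwf*, *Emcn*, and *Egfl7*, were each at 0 to 1.90 CPM in AVF SMCs and at 11.2 to 33.5 CPM in contralateral SMCs. The 10 fibroblast genes summed to 7372, 7471, and 6480 CPM, against 79395, 72312, and 56126 CPM in the fibroblasts of the same libraries, and 2, 5, and 20 SMCs carried *Dcn*, *Lum*, and *Pdgfra* at 0.5% of UMIs or more. The study reports that fibroblasts of AVFs gained *Acta2* and *Tagln* as they became myofibroblasts, and it lists *Dcn* for its quiescent fibroblasts. Such myofibroblasts could meet the rule, and their number among the SMCs was not tested. The 4 hemoglobin genes moved with the library, from 16881 CPM in contralateral SMCs to 1689 and 1.98 CPM in AVF SMCs, and from 111215 to 11902 and 272 CPM in the other cells. The part of these transcripts in the results was not tested.

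The SMCs of the contralateral veins were of mixed kind. Of the 41, 21 (51.2%) carried 8 pericyte genes at a summed 0.1% of UMIs or more, against 10 of 175 (5.71%) in early AVFs and 29 of 418 (6.94%) in late AVFs. In contralateral veins these 21 cells held 3145 CPM of *Rgs5* and the other 20 cells 34.3 CPM. Most list UMIs of the 21 cells were *Rgs5*, and the next gene, *Abcc9*, differed less (191 against 111 CPM). *Cox4i2* alone of the list lay the other way (53.9 against 85.7 CPM). The 21 cells also held more *Cnn1* (900 against 394 CPM) and *Npnt* (324 against 129 CPM) but less *Myh11* (4511 against 5133 CPM). For part of the genes below, levels are therefore given also without the cells with pericyte genes, meaning those at 0.1% or more. This choice was made after seeing the data and leaves 20 contralateral SMCs. The SMCs left are not free of the list, whose genes still differed between the libraries in both directions. Among them *Ndufa4l2* was at 120, 3.09, and 0.555 CPM, and *Kcnj8* at 0, 29.5, and 19.3 CPM, in contralateral, early, and late libraries. The counts over gene lists were not recomputed without the cells with pericyte genes.

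Contractile genes were compared first. SMCs of early AVFs held 10690 CPM of *Acta2*, SMCs of late AVFs 14621 CPM, and contralateral SMCs 12008 CPM. *Tagln*, the actin-binding protein transgelin, stood at 8941, 8555, and 10152 CPM in contralateral, early, and late SMCs. Both genes belong to the rule, and the sum of its 4 muscle genes could not fall below 1% in any SMC. *Myh11* was at 4714, 2270, and 3080 CPM, and *Myl9* at 3394, 2564, and 2658 CPM in the same order. Outside the rule, *Cnn1* was at 735, 808, and 951 CPM, a ratio to contralateral SMCs of 1.10 (0.968 to 1.25) in early and 1.29 (1.14 to 1.47) in late AVFs. *Cnn1* without the cells with pericyte genes was at 394, 822, and 961 CPM, and its log2 ratios to contralateral SMCs were 1.06 and 1.29. Those of *Acta2* and *Tagln* also moved, with levels of 9366, 10815, and 14804 CPM and of 6658, 8648, and 10232 CPM.

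Of the 25 genes of a contractile list, none was higher and 5 were lower past 2-fold in SMCs of early AVFs, and 0 were higher and 4 lower in SMCs of late AVFs. Past 2-fold means here that the whole 95% interval of the ratio lay beyond 2-fold. Over all genes with enough UMIs, 2.71% were higher and 3.1% lower in early SMCs (of 7551), and 2.56% higher and 4% lower in late SMCs (of 9502). The median log2 ratio of the list was −0.18 in early and −0.14 in late SMCs, beside −0.06 and −0.24 over all those genes. *Mylk* was the most abundant of the lower genes outside the tropomyosins, at 2441 CPM in contralateral, 962 in early, and 1121 in late SMCs. The ratio of *Mylk* to contralateral SMCs was 0.394 (0.366 to 0.425) in early and 0.459 (0.429 to 0.493) in late AVFs.

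Desmin (*Des*), the intermediate filament protein of muscle, was at 674, 69.5, and 32.3 CPM in contralateral, early, and late SMCs. *Ppp1r12b*, a subunit of the phosphatase that reverses the action of *Mylk*, was at 517, 209, and 200 CPM. The tropomyosin *Tpm1* passed 2-fold in early SMCs alone, with a ratio of 0.419 (0.391 to 0.450), and its ratio in late SMCs, 0.484 (0.453 to 0.517), had an interval that reached 2-fold. *Lmod1*, which nucleates actin filaments, had ratios of 1.44 (1.25 to 1.67) and 1.27 (1.10 to 1.47), and *Myocd* had ratios of 1.01 (0.733 to 1.43) and 1.72 (1.26 to 2.40). Without the cells with pericyte genes, *Mylk* was at 3059 CPM in contralateral, 963 in early, and 1127 in late SMCs, and *Des* at 463, 66.9, and 32.2 CPM.

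**Figure D1:**
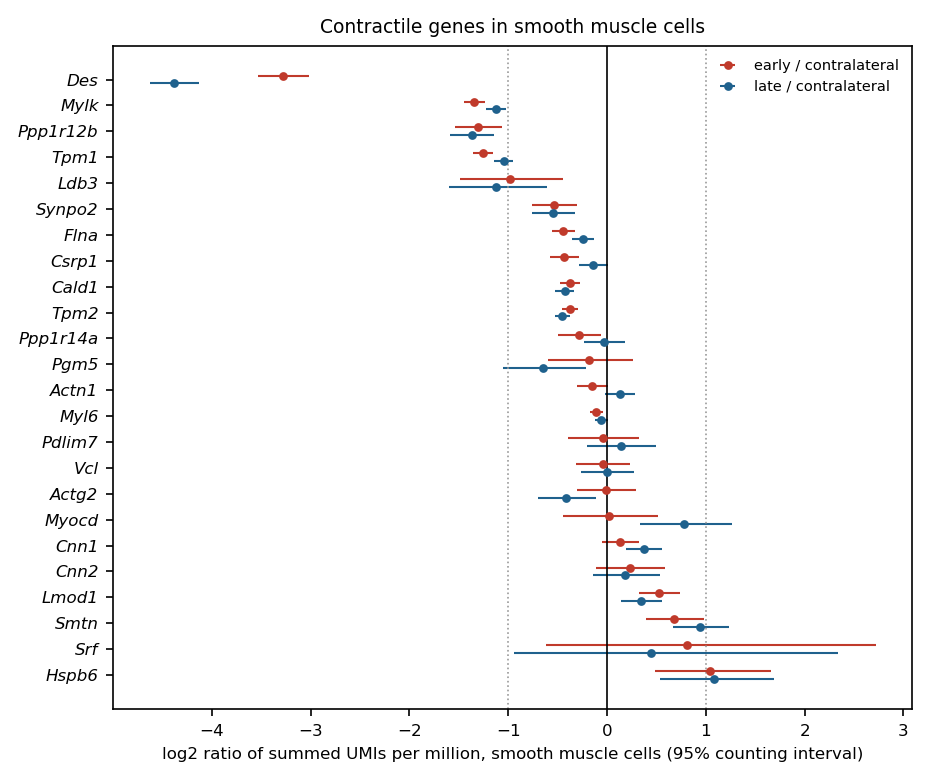
Log2 ratio of CPM between SMCs of early (red) or late (blue) AVFs and contralateral SMCs, 1 line per gene for 24 of the 25 genes of the contractile list; points are ratios, bars 95% intervals that cover counting error, and dotted lines mark 2-fold. *Des*, *Mylk*, and *Ppp1r12b* lie beyond 2-fold lower at both times, while most genes lie within 2-fold.

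Promoters of these genes are shown because many contractile genes are known to be bound by serum response factor. Within 250 bases before the start of transcription, the CArG box was found without mismatch in 439 of 27025 promoters (1.62%), and allowing 1 mismatch in its A and T core in 2643 (9.78%). Sequences are from RefSeq (GRCm38.p6), and since the motif is its own reverse complement, 1 scan covered both strands. Of the contractile list, 22 genes had a promoter in the table, and 5 of these (22.7%) held the motif without mismatch, namely *Cnn2*, *Myl6*, *Vcl*, *Ldb3*, and *Srf* itself. Of the rule genes, *Acta2* and *Myl9* had an entry. None of 12 promoters of the smooth muscle identity list held it. The stretches below are given 5′ to 3′ on the strand of the gene, with matches in capitals, for the 2 rule genes, for *Srf*, for vinculin (*Vcl*), which links actin to adhesions, and for *Cnn1*, in which these letters were not found. They lie at chr19:34255438-34255467 (*Acta2*, minus strand), chr2:156775294-156775413 (*Myl9*, plus), chr17:46556213-46556332 (*Srf*, minus), chr14:20929158-20929277 (*Vcl*, plus), and chr9:22099083-22099202 (*Cnn1*, plus).
Acta2: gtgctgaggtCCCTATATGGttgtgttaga
Myl9: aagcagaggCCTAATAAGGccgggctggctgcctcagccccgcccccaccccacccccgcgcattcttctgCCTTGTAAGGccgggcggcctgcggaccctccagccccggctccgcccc
Srf: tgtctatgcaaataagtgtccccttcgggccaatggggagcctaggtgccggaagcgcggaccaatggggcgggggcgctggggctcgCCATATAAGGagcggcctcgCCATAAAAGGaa
Vcl: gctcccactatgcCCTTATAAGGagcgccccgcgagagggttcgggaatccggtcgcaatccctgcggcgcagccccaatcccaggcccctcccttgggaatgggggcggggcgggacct
Cnn1: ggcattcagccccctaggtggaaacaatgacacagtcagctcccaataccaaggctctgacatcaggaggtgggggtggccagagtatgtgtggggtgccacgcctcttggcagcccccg
The *Acta2* match and the second *Myl9* match carry 1 mismatch in the core, the others none. A match is a description of the letters and not a binding site.

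The smooth muscle identity list split in 2 directions. Of 15 genes with enough UMIs, 2 were higher and 7 lower in early SMCs, and 2 higher and 8 lower in late SMCs. The higher genes were *Itga8* and *Npnt*, a receptor and its ligand. *Itga8* stood at 400, 1408, and 1399 CPM in contralateral, early, and late SMCs, 3.52-fold (2.98 to 4.19) and 3.50-fold (2.97 to 4.15) above contralateral SMCs. *Npnt* stood at 260, 714, and 1170 CPM, 2.75-fold (2.23 to 3.42) and 4.50-fold (3.67 to 5.58). In SMCs without pericyte genes, *Itga8* stood at 266, 1435, and 1432 CPM and *Npnt* at 129, 724, and 1187 CPM, so that the log2 ratios to contralateral SMCs were 2.43 at both times for *Itga8*, and 2.49 and 3.21 for *Npnt*. With every cell thinned to 1000 UMIs, which left 37, 171, and 397 SMCs and 4, 4, and 21 out, *Npnt* was found in 16.2%, 50.3%, and 65.5% of SMCs, against 36.6%, 92.0%, and 93.5% before thinning. In T cells, which should lack it, the thinned share was at most 1.68%. Over single cells the middle range (first to last quartile) of *Npnt* ran from 0 to 3.47 UMIs per 10000 in contralateral, from 4.51 to 8.93 in early, and from 7.11 to 14.5 in late SMCs. SMCs held 47.7%, 70.9%, and 80.2% of all *Npnt* UMIs in kept cells of the 3 libraries and 60.3%, 79.9%, and 86.5% of all *Itga8* UMIs. Such shares also depend on the number and depth of the SMCs, whose summed UMIs were 357686, 3685309, and 9602881.

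*Notch3*, the receptor that receives Jagged signals in mural cells, was the most abundant of the genes that were lower. It stood at 679, 34.7, and 21.7 CPM, a ratio to contralateral SMCs of 0.0511 (0.0409 to 0.0636) in early and 0.0319 (0.0264 to 0.0385) in late AVFs. After thinning, a *Notch3* UMI was found in 43.2% of contralateral SMCs, 4.09% of early SMCs, and 2.02% of late SMCs, and in no T cell. Its ligand gene *Jag1* was at 232, 71.6, and 68.7 CPM. Without the cells with pericyte genes, *Notch3* was at 1011, 22.8, and 15.9 CPM, so the difference was larger. The nuclear receptor interacting protein gene *Nrip2* was at 232, 5.97, and 1.35 CPM, the olfactory receptor gene *Olfr558* at 207, 12.5, and 1.67 CPM, and phospholamban (*Pln*), which regulates the calcium pump of the reticulum, at 238, 27.9, and 15.4 CPM. The adhesion molecule *Mcam* was at 472, 155, and 158 CPM. In SMCs under the 0.1% limit on pericyte genes, *Nrip2* was at 437, 3.37, and 0 CPM, *Olfr558* at 403, 4.50, and 0 CPM, and *Pln* at 539.9, 28.7, and 15.2 CPM.

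*Rgs5*, a regulator of G protein signals used as a pericyte marker, was at 2130, 244, and 207 CPM in all SMCs. Without the cells with pericyte genes it was at 34.3, 29.2, and 69.9 CPM, and the log2 ratio of late to contralateral SMCs changed from −3.36 to 1.03. *Rgs5* is itself on the list by which those cells were left out. Receptors and channels for contraction were lower in part, with 5 of 15 lower in early SMCs and 5 lower and 1 higher in late SMCs. The endothelin receptor gene *Ednra* was at 159, 15.7, and 6.14 CPM, the calcium channel gene *Cacna1c* at 106, 30.7, and 23.2 CPM, and the kinase gene *Prkg1*, which mediates relaxation by nitric oxide, at 238, 68.4, and 73.4 CPM. The 1 higher gene was *Kcnmb1*, a subunit of the large potassium channel, at 44.7, 143, and 147 CPM.

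**Figure D2:**
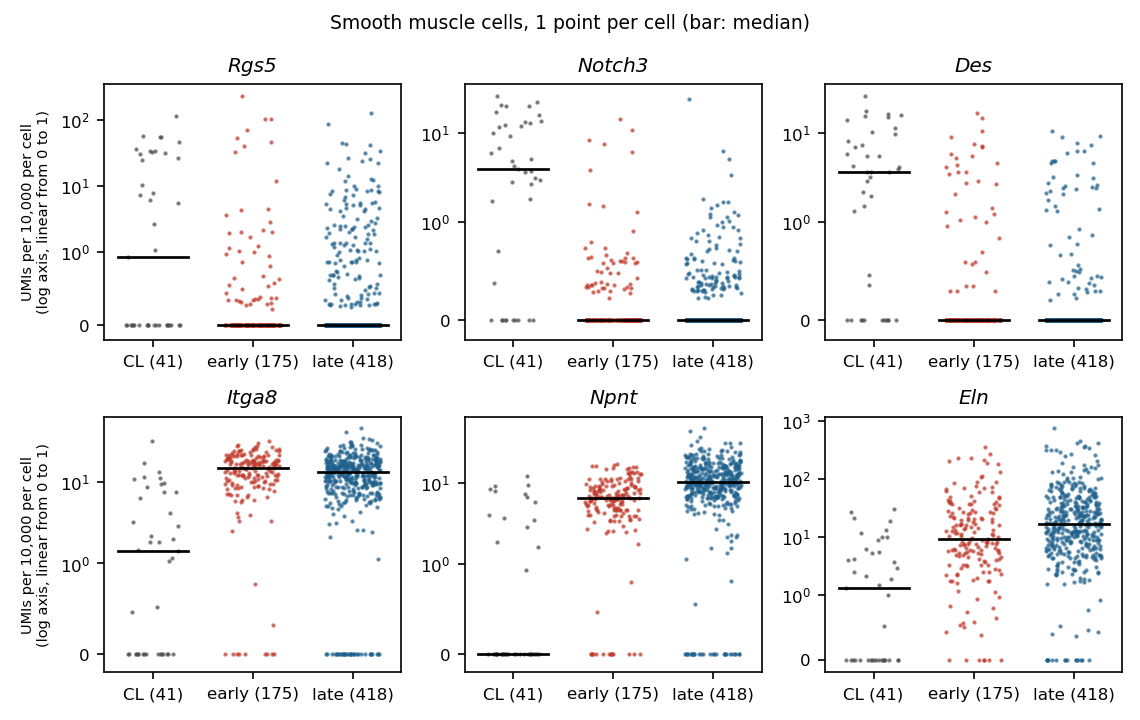
UMIs per 10000 in single SMCs of contralateral veins (41 cells), early AVFs (175), and late AVFs (418), on an axis that is linear from 0 to 1 and logarithmic above; each point is 1 cell and bars are medians. *Rgs5* in contralateral SMCs is either 0 (20 cells) or mostly high, the median of *Notch3* is 3.92 there and 0 in both AVF libraries, and the medians of *Itga8* are 1.43, 14.8, and 13.0.

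More matrix genes were higher than lower in AVF SMCs. Of 41 matrix genes with enough UMIs, 16 were higher and none lower past 2-fold in early SMCs, and 12 were higher and 2 lower in late SMCs, with median log2 ratios of 1.17 and 0.77. The elastic fiber genes named here were past 2-fold higher at both times, but being past 2-fold was 1 of the grounds for naming a list gene. Elastin (*Eln*) was at 705, 3769, and 4590 CPM in contralateral, early, and late SMCs, and *Fbln5*, which helps to assemble elastic fibers, at 232, 906, and 878 CPM. The microfibril gene *Fbn1* was at 75.5, 272, and 258 CPM and *Lox*, which crosslinks elastin and collagen, at 69.9, 376, and 390.3 CPM. The ratio of *Eln* to contralateral SMCs was 5.35 (4.72 to 6.08) in early and 6.51 (5.76 to 7.40) in late AVFs. In fibroblasts *Eln* was at 460, 1894, and 1140 CPM, and SMCs held 2.80%, 31.6%, and 35.9% of all *Eln* UMIs of kept cells. These shares also depend on the number and depth of the SMCs.

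Matrix *Gla* protein (*Mgp*), an inhibitor of calcification, was the most abundant matrix gene, at 3450 CPM in contralateral, 35507 in early, and 17297 in late SMCs. Of its UMIs in contralateral SMCs, 60.9% came from 1 cell. Without the cells with pericyte genes it was at 129, 36537, and 17325 CPM, and *Eln* at 223, 3884, and 4496 CPM. Biglycan (*Bgn*), a small proteoglycan, was at 1090.3, 5432, and 5535 CPM. Fibrillar collagens differed less, *Col1a1* with ratios of 2.25 (2.04 to 2.49) and 1.45 (1.31 to 1.60) and *Col1a2* with 1.70 (1.56 to 1.86) and 1.59 (1.46 to 1.73). The basement membrane genes *Col4a1* and *Col4a2* had ratios of 1.01 (0.862 to 1.19) and 1.01 (0.827 to 1.24) in early SMCs. Periostin (*Postn*) was at 444.5, 1464, and 908 CPM and *Cthrc1* at 2.80, 55.6, and 3.12 CPM. *Timp1*, an inhibitor of matrix proteases, was at 19.6, 186, and 65.9 CPM.

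**Figure D3:**
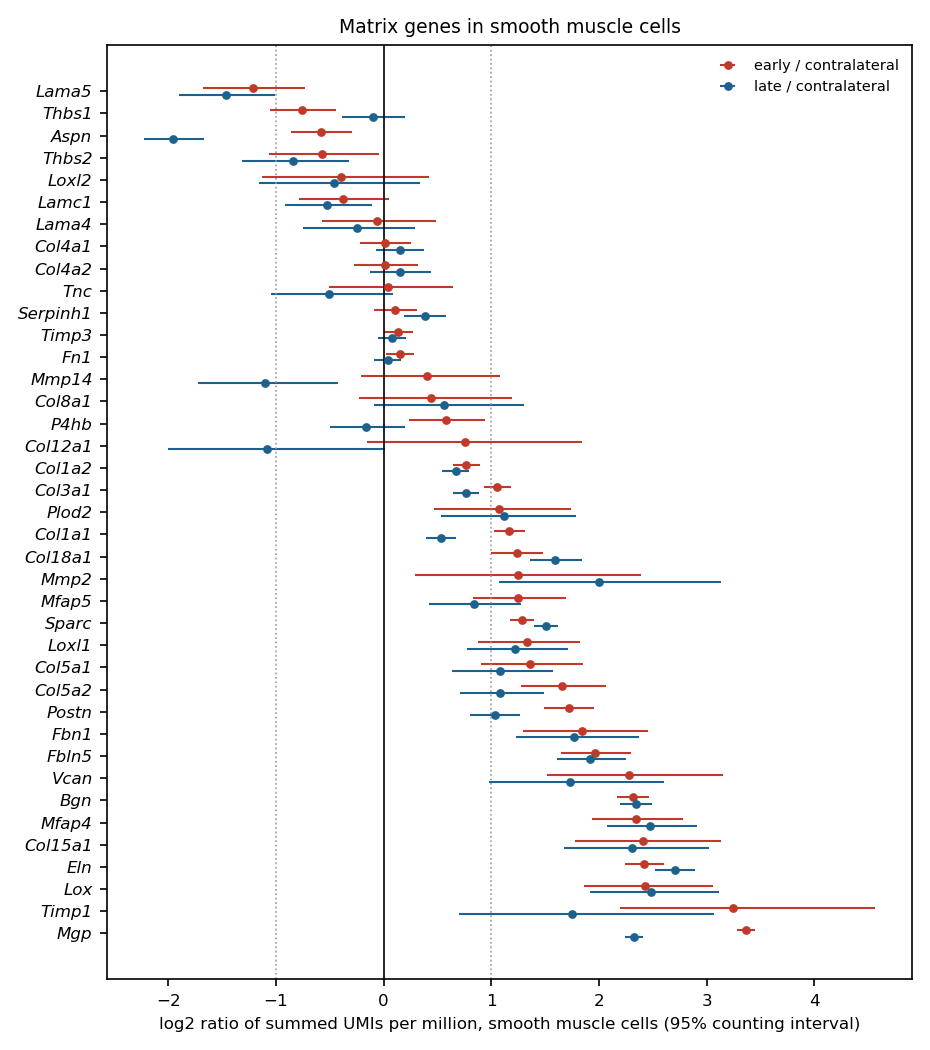
Log2 ratio of CPM between SMCs of early (red) or late (blue) AVFs and contralateral SMCs for the 39 matrix genes with enough UMIs at both times and more than 3 UMIs in contralateral SMCs; points are ratios, bars 95% counting intervals, and dotted lines mark 2-fold. *Mgp*, *Lox*, *Eln*, *Mfap4*, and *Bgn* lie beyond 2-fold higher at both times, while *Col4a1* and *Col4a2* lie near 0.

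Genes known from switched SMCs were more often higher than lower. Of 22 with enough UMIs, 11 were higher and 1 lower in early SMCs, and of 23, 14 were higher and 1 lower in late SMCs. The summed list also rose in the rest of each AVF library. It came to 13389, 29473, and 28270 CPM in contralateral, early, and late SMCs. The other kept cells held 13621, 29776, and 26995 CPM, and fibroblasts 12439, 23271, and 26436 CPM. The adhesion molecule *Vcam1* was at 25.2, 438, and 580 CPM, the intermediate filament gene *Vim* at 2276, 7268, and 8059 CPM, and the chondrogenic factor *Sox9* at 2.80, 82.5, and 125 CPM, with 1 UMI in contralateral SMCs. Osteopontin (*Spp1*) was at 2.80, 331, and 60.8 CPM and *S100a4* at 126, 1701, and 857 CPM, both highest in early SMCs. The chemokine gene *Cxcl1* was at 61.5, 359, and 853 CPM. Fibroblasts held 397, 3276, and 4812 CPM of *Cxcl1* and 129, 492, and 490 CPM of *Vcam1* in the same libraries. *Ly6a* was the 1 lower gene, at 109, 14.9, and 19.9 CPM.

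Among growth factor genes, 4 of 20 were higher and 4 lower in early SMCs, and 8 of 21 higher and 3 lower in late SMCs. The mechanosensitive gene *Ccn2* was at 431, 2331, and 2574 CPM and *Tgfb2* at 78.3, 255, and 348 CPM. *Igfbp5*, which binds insulin-like growth factors, was at 2539, 243, and 130 CPM, a ratio of 0.0956 (0.0870 to 0.105) in early and 0.0514 (0.0471 to 0.0560) in late SMCs.

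Between late and early SMCs fewer genes lay past 2-fold. Over all 10147 genes with enough UMIs, 0.818% were higher and 0.532% lower in late SMCs. Of 13 immediate early and heat shock genes, 7 were higher and none lower. The chaperone genes *Dnajb1*, at 696, 867, and 3519 CPM in contralateral, early, and late SMCs, and *Hspa8*, at 1845, 2582, and 5888 CPM, were among them. In fibroblasts the late to early ratios of *Dnajb1* and *Hspa8* were 1.88 and 1.92, against 4.06 (3.91 to 4.21) and 2.28 (2.23 to 2.33) in SMCs. All cells were released by enzymatic digestion, and its part in these genes was not tested. Of 41, 175, and 418 SMCs, 2, 13, and 31 (4.88%, 7.43%, and 7.42%) held UMIs of 2 or more of 12 cell division genes. The libraries differ in depth, and after thinning to 1000 UMIs 0 of 37, 171, and 397 did, so a difference between the libraries was not detectable at this depth.

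Outside the lists, the genes with the highest ratios included 3 secreted inhibitors of Wnt signaling, *Frzb*, *Wif1*, and sclerostin (*Sost*). *Frzb* was at 2.80 CPM (1 UMI) in contralateral, 201 in early, and 140 in late SMCs, 72.0-fold (12.9 to 2848) and 50.2-fold (9.00 to 1986) above contralateral SMCs. *Wif1* had no UMI in contralateral SMCs and 142 and 112 CPM in early and late SMCs, at least 17.0-fold and 13.3-fold higher when set against a floor of 3 UMIs over the library. *Sost*, known as a product of osteocytes, was at 14.0, 317, and 477 CPM. After thinning, *Sost* was found in 0%, 21.6%, and 35.3% of SMCs and in at most 0.842% of T cells. SMCs held 93.2% of all *Sost* UMIs of kept cells in early AVFs and 88.6% in late AVFs, 74.2% and 61.2% of those of *Wif1*, and 56.2% and 44.3% of those of *Frzb*. Fibroblasts held 33.5% of the *Frzb* UMIs of kept cells in late AVFs, and their levels of *Frzb* were 0.391, 19.4, and 19.8 CPM in contralateral, early, and late libraries. Their levels of *Sost* were 0.859, 0.434, and 3.13 CPM. Without the cells with pericyte genes, *Frzb* stood at 0, 204, and 132 CPM and *Sost* at 0, 303, and 468 CPM in SMCs.

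Further genes past 2-fold at both times were *Mylk4*, a kinase of the *Mylk* family, at 8.39, 231, and 176 CPM and *Itih4*, an inhibitor family protein of plasma, at 36.3, 785, and 233 CPM. SMCs held 88.3% of the *Mylk4* UMIs of kept cells in both AVF libraries, and 82.1% and 84.2% of those of *Itih4*. Angiotensin-converting enzyme (*Ace*) was at 5.59, 225, and 175 CPM, and the neurotrophin gene *Bdnf* at 5.59, 92.8, and 158 CPM. In SMCs without pericyte genes, *Wif1* was at 0, 146, and 113 CPM, *Mylk4* at 0, 239.8, and 184 CPM, *Itih4* at 8.57, 813, and 235 CPM, and *Ace* at 0, 231, and 179 CPM. Among the genes with the lowest ratios were the cofactor *Hopx*, at 235, 5.43, and 2.19 CPM, the transcription factor gene *Tbx2*, at 162, 12.2, and 6.46 CPM, and *Cpxm2*, at 140, 6.24, and 3.75 CPM. In the SMCs under that limit, *Hopx* was at 163, 1.97, and 1.89 CPM, *Tbx2* at 266, 9.28, and 6.22 CPM, and *Cpxm2* at 129, 6.18, and 2.00 CPM. For *Cck*, *Fst*, and *Rasd1*, 59.6% to 78.9% of the UMIs in contralateral SMCs came from 1 cell.

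Bulk vessels gave a replicated reading of the same genes. Values are CPM scaled by edgeR, from 20254173 to 67457501 counts per vessel. In bulk RNA, fewer cells of a type and less RNA per cell cannot be told apart. The 3 times share their contralateral veins. A gene was called where the adjusted p was under 0.01 (Benjamini–Hochberg over 12673 genes, edgeR quasi-likelihood test) and the log2 fold change was 1 or more in size. Of all genes, 6.17% were called higher and 6.45% lower in early AVFs, 2.74% and 3.31% in mid AVFs, and 2.49% and 2.85% in late AVFs.

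Contractile genes fell at every time. Of the 25 genes of the list, 15 fell in the early, 15 in the mid, and 14 in the late vessels, and none rose. The median log2 fold changes were −2.01, −1.71, and −1.50, beside −0.01, −0.10, and −0.09 over all genes. In 14, 15, and 14 of them every AVF lay below every contralateral vein, which held for 2.36%, 4.69%, and 4.28% of all genes. All 4 genes of the rule fell at the 3 times. The called genes shared by early, mid, and late AVFs included the tropomyosins *Tpm1* and *Tpm2*, filamin (*Flna*), and *Ppp1r14a*, an inhibitor of myosin phosphatase, which fell by 3.23, 4.00, and 3.29 on the log2 scale. *Smtn*, known as a marker of contractile SMCs, fell in early AVFs (−1.19 ± 0.23, edgeR adjusted p = 0.000395) and lay 1.05 ± 0.25 higher in late than in early AVFs (0.00853).

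*Acta2* ran from 6210 to 14189 CPM in contralateral veins (median 7448) and from 844 to 2243 CPM in early AVFs (median 1382). The mid AVFs held 1108, 1606, 1254, 1317, and 1785 CPM and the late AVFs 2019, 1697, 2360, 2600, and 1904 CPM. No AVF reached a contralateral vein, with log2 fold changes of −2.66 ± 0.22, −2.60 ± 0.27, and −2.02 ± 0.26 (edgeR adjusted p = 2.44e-09, 2.08e-07, and 6.63e-06). Late and early AVFs overlapped and their difference was not called (0.63 ± 0.23, 0.115). *Myl9* ran from 3300 to 6644 CPM in contralateral veins and from 281 to 1403 CPM over all AVFs.

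*Myh11* ran from 1337 to 3766 CPM in contralateral veins (median 1969) and from 27.2 to 101 CPM in early AVFs (median 57.1). It was 121, 247, 170, 159, and 133 CPM in the mid AVFs and 277, 281, 278, 333, and 281 CPM in the late AVFs. No AVF reached a contralateral vein, and all late AVFs lay above all early ones. By edgeR the log2 fold change of early AVFs was −5.26 ± 0.29 (SE, adjusted p = 1.78e-12), that of mid AVFs −3.81 ± 0.33 (1.57e-08), and that of late AVFs −3.01 ± 0.32 (5.42e-07). Late AVFs lay 2.25 ± 0.27 above early AVFs (adjusted p = 2.71e-05). Over all genes, 0.726% were higher and 2.28% lower in late than in early AVFs.

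*Cnn1* ran from 925 to 2634 CPM in contralateral veins (median 1140) and from 34.1 to 135 CPM in early AVFs (median 75.4). It was 70.8, 101, 82.9, 64.6, and 94.4 CPM in the mid AVFs and 127, 121, 118, 147, and 108 CPM in the late AVFs. No AVF reached a contralateral vein, and late and early AVFs overlapped. The log2 fold change was −4.18 ± 0.28 (adjusted p = 5.92e-11), −4.10 ± 0.34 (9.80e-09), and −3.52 ± 0.33 (1.01e-07) by edgeR at the 3 times.

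*Mylk* ran from 904 to 1632 CPM in contralateral veins (median 1067) and from 62.4 to 120.5 CPM in early AVFs (median 79.1). The mid AVFs held 103, 121, 97.1, 100.2, and 140 CPM and the late AVFs 139, 143, 140, 243, and 204 CPM. The late AVFs all lay above the early ones, with a log2 difference of 0.99 ± 0.20 (edgeR adjusted p = 0.00413) just under the limit for a call. The difference was called under each of 4 other settings of the fit and without 1 of 10 vessels (1.00 to 1.12). Against contralateral veins *Mylk* fell by 3.73, 3.37, and 2.74 on the log2 scale. *Actg2*, the enteric actin, ran from 815 to 2276 CPM in contralateral veins and from 27.1 to 159 CPM over all 18 AVFs.

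*Lmod1*, *Synpo2*, an actin-bundling protein, and *Pgm5*, an adhesion plaque protein, fell likewise. Their log2 fold changes in late AVFs were −1.56 ± 0.33, −2.06 ± 0.35, and −3.80 ± 0.49 (edgeR adjusted p = 0.00219, 0.000266, and 6.21e-06). The call of *Lmod1* in late AVFs was lost without late AVF 16 (−1.46) or late AVF 17 (−1.44). In bulk *Tagln* ran from 50.9 to 160 CPM in contralateral veins while *Acta2* ran from 6210 to 14189 CPM. The annotated end of *Tagln* overlaps that of *Pcsk7* on the other strand, and how the counting treated such reads is not given in the sources used here, so the level of *Tagln* is uncertain.

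**Figure D4:**
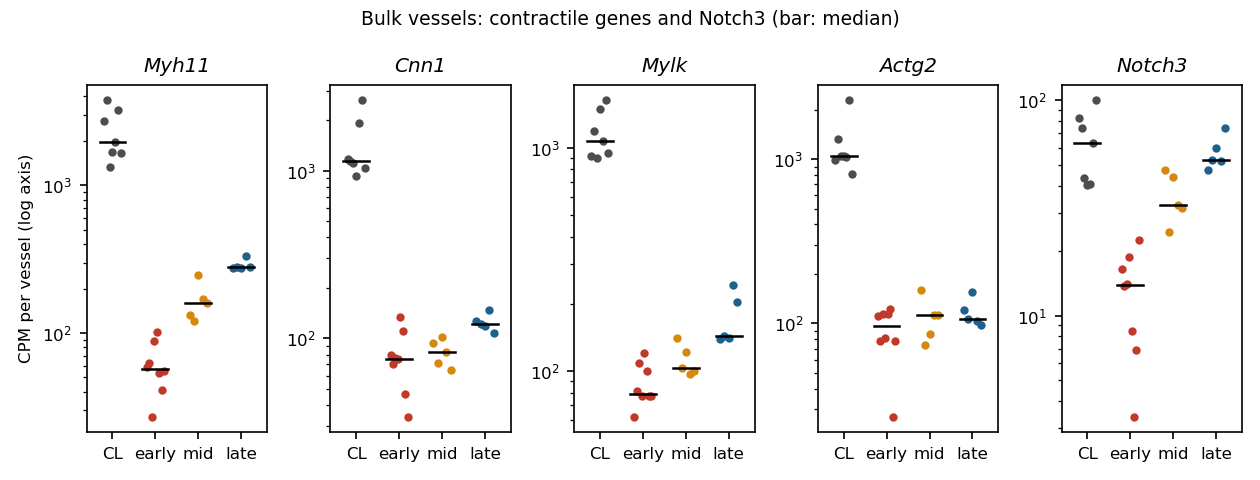
CPM in single vessels, on a log axis, for 4 contractile genes and *Notch3* in contralateral veins (CL, 7 vessels), early (8), mid (5), and late (5) AVFs; each point is 1 vessel and bars are medians. The contractile genes are lower in every AVF than in every contralateral vein, while *Notch3* in the 5 late AVFs (47.5 to 74.4 CPM) lies within the range of contralateral veins.

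Markers of other cell types moved in the same vessels. Of 7 endothelial genes, 5, 6, and 5 fell in early, mid, and late AVFs, and of 7 macrophage genes, 6, 2, and 1 rose. Of 5 skeletal muscle genes, 4 rose at each time. Their part in the fall of the contractile genes was not tested.

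Among the identity genes, *Notch3* was low in SMCs of both AVF libraries and was read in bulk as follows. *Notch3* ran from 40.4 to 99.7 CPM in contralateral veins (median 63.4) and from 3.40 to 22.3 CPM in early AVFs (median 13.8). It was 24.3, 43.9, 32.7, 31.5, and 47.5 CPM in the mid AVFs and 47.5, 52.9, 59.8, 52.2, and 74.4 CPM in the late AVFs. Early AVFs lay below all contralateral veins, with a log2 fold change of −2.29 ± 0.35 (edgeR adjusted p = 1.93e-05), and late AVFs overlapped with them (−0.14 ± 0.38, 0.858). Late AVFs lay 2.14 ± 0.36 above early AVFs (adjusted p = 0.00149). In the single-cell library of late AVFs, SMCs held 43.0% of the *Notch3* UMIs of kept cells, fibroblasts 24.6%, and in contralateral veins SMCs held 63.3%.

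*Itga8* ran from 64.7 to 653 CPM in contralateral veins (median 186) and from 37.9 to 102 CPM in early AVFs (median 66.5), which overlapped. It fell in early AVFs (log2 fold change −2.17 ± 0.39, edgeR adjusted p = 0.000153) and was at 280, 273, 164, 220, and 257 CPM in the late AVFs. Late AVFs lay 1.84 ± 0.41 above early AVFs (0.00565), a call lost when 1 of 8 vessels was left out, early AVFs 3, 6, or 7 or any late AVF, with values of 1.77 to 1.98. *Npnt* ran from 22.2 to 248 CPM in contralateral veins (median 193) and from 38.5 to 176 CPM in early AVFs (median 69.4), and was at 122, 84.1, 152, 121, and 112 CPM in the late AVFs. The groups overlapped and no call was made, with log2 fold changes of −1.02 ± 0.37, −1.09 ± 0.43, and −0.56 ± 0.43. Without contralateral vein 31, which held the lowest value, *Npnt* in early AVFs was called at −1.27. *Rgs5* and *Des* were not called either, with log2 fold changes of −1.29 ± 0.45 and −1.55 ± 0.64 in early AVFs. *Des* varied widely, from 76.4 to 762 CPM in mid and from 43.1 to 374 CPM in late AVFs. The part of skeletal muscle in these *Des* values was not tested. Of 15 identity genes tested, 6 fell in early AVFs and 2 in mid and late AVFs, *Mustn1* and *Rbpms2*. Without contralateral vein 31, 10 fell in early AVFs, and without late AVF 16, 17, or 24, 1 fell in late AVFs. Of 7 pericyte genes, 4, 1, and 1 fell.

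The Wnt inhibitors rose in bulk vessels at each time. *Frzb* had 4 counts in 2 contralateral veins and none in the other 5, at most 0.0869 CPM, and ran from 9.51 to 76.2 CPM in early AVFs (median 26.7). It was 42.2, 65.7, 28.5, 51.1, and 37.2 CPM in the mid AVFs and 62.2, 81.7, 28.9, 88.3, and 108 CPM in the late AVFs. All 18 AVFs lay above all contralateral veins, with log2 fold changes of 10.16 ± 0.78 (edgeR adjusted p = 7.21e-10), 10.67 ± 0.80 (2.65e-09), and 11.38 ± 0.82 (1.86e-09). *Wif1* had 4 counts in 1 contralateral vein, at 0.157 CPM, and ran from 4.21 to 35.6 CPM in early AVFs (median 8.08). It was 9.80, 20.6, 8.04, 8.39, and 18.5 CPM in the mid AVFs and 16.9, 19.6, 9.31, 6.56, and 18.7 CPM in the late AVFs, again above all contralateral veins. The log2 fold changes of *Wif1* were 8.70 ± 1.03 (5.96e-07), 8.91 ± 1.05 (1.73e-06), and 9.03 ± 1.06 (2.02e-06), and with so few control counts these sizes depend on the prior count of the fit.

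*Sost* had no count in any of the 7 contralateral veins. It ran from 0 to 2.26 CPM in early AVFs (median 1.07), was 2.52, 8.56, 2.51, 0.772, and 3.59 CPM in the mid AVFs, and 20.9, 6.27, 6.27, 9.83, and 11.0 CPM in the late AVFs. All mid and late AVFs lay above the contralateral veins and 1 early AVF had no count. *Sost* was below the limit on mean counts of the fit, so it was tested on log2(CPM + 1) with a two-sided exact permutation test over vessels. The exact p was 0.00249 for early and 0.00253 for mid and for late AVFs (0.00253 at each after adjustment over the 3 comparisons), the latter the smallest that 5 against 7 vessels can give. The means lay at least 52.4-fold, 204-fold, and 617-fold above a floor of 3 counts over the contralateral veins.

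*Mylk4* had 6 counts in 2 contralateral veins, at most 0.139 CPM, and ran from 0.566 to 10.7 CPM in early AVFs (median 5.02). It was 19.5, 30.2, 9.16, 10.4, and 10.3 CPM in the mid AVFs and 22.9, 20.5, 16.1, 34.0, and 13.6 CPM in the late AVFs. All AVFs lay above all contralateral veins, with log2 fold changes of 7.12 ± 0.95 (edgeR adjusted p = 3.84e-06), 8.74 ± 1.03 (1.66e-06), and 9.17 ± 1.05 (1.56e-06). The 5 skeletal muscle genes, of which 4 rose in the same vessels, summed to 8.39, 3.80, and 2.19 CPM in contralateral, early, and late SMCs. The part of skeletal muscle in the bulk values of *Mylk4* was not tested. *Itih4* ran from 0 to 7.93 CPM in contralateral veins (median 1.33) and from 10.5 to 55.1 CPM in early AVFs (median 31.7), with log2 fold changes of 3.61 ± 0.88 (0.00376), 3.89 ± 0.94 (0.00603), and 3.77 ± 0.93 (0.00830). The call of *Itih4* was lost in late AVFs when 1 of 17 vessels was left out (3.55 to 3.89), every late AVF among them, or with sex as a term (3.78), and in mid AVFs when 1 of 6 was (3.60 to 3.96).

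**Figure D5:**
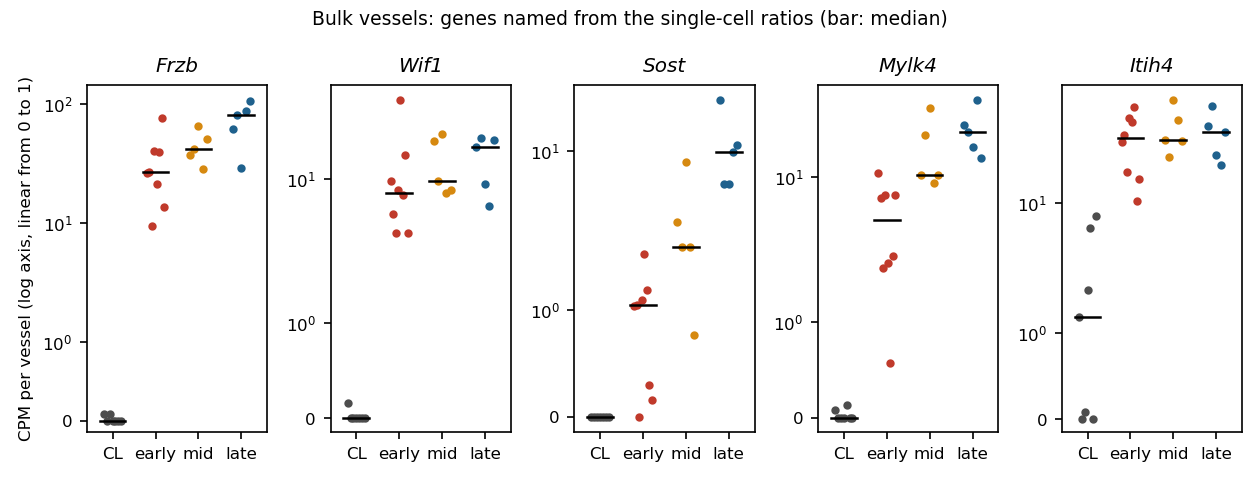
CPM in single vessels for 5 genes with high ratios in AVF SMCs, in contralateral veins (CL, 7 vessels), early (8), mid (5), and late (5) AVFs, on an axis that is linear from 0 to 1 and logarithmic above; each point is 1 vessel and bars are medians. *Frzb*, *Wif1*, *Mylk4*, and *Itih4* lie above all contralateral veins in all AVFs, and *Sost* in all but 1 early AVF.

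Of the 17 genes with the highest ratios in AVF SMCs that were tested in bulk, 5 rose at each time, and 2, 1, and 1 fell in early, mid, and late AVFs. *Frzb*, *Wif1*, *Mylk4*, and *Itih4* rose at all 3 times, *Sox9* in early AVFs (3.18 ± 0.85, edgeR adjusted p = 0.00756), and *Plxdc2*, a transmembrane protein, in mid and late AVFs (2.81 ± 0.68 and 3.03 ± 0.68, 0.00602 and 0.00400). In fibroblasts of contralateral, early, and late libraries, *Sox9* was at 14.3, 74.6, and 59.1 CPM and *Plxdc2* at 104, 196, and 258 CPM. *Plxdc2* in SMCs was at 16.8, 236, and 200 CPM. *Rbp4*, a carrier of retinol, was at 16.8, 279, and 178 CPM in contralateral, early, and late SMCs, and in bulk it fell by 2.14, 3.06, and 2.87 on the log2 scale at the 3 times. In fibroblasts of the same libraries *Rbp4* was at 111, 34.6, and 17.5 CPM. *Ace* fell in early AVFs (−1.68 ± 0.29, edgeR adjusted p = 0.000112) and lay 1.74 ± 0.31 higher in late than in early AVFs (0.00241). Fibroblasts held 270.4, 144, and 389.5 CPM of *Ace*. Of the 13 genes with the lowest ratios in AVF SMCs that were tested, 6 fell in early AVFs and 1, *Igfbp5*, at each later time. The fall of *Igfbp5* came to −2.51 ± 0.28 (2.87e-07) in early AVFs and −1.30 ± 0.32 (edgeR adjusted p = 0.00803) in late AVFs. Of the *Igfbp5* UMIs in kept cells of contralateral veins, SMCs held 4.31% and fibroblasts 69.8%. Fibroblasts stood at 1148, 175, and 544 CPM of *Igfbp5* in contralateral, early, and late libraries. *Cpxm2*, a carboxypeptidase-like protein, ran from 179 to 943 CPM in contralateral veins and from 0.914 to 61.7 CPM in early ones, a log2 fold change of −4.95 ± 0.59 (edgeR adjusted p = 6.04e-07). In contralateral veins SMCs held 5.71% of its UMIs in kept cells and fibroblasts 86.3%.

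In bulk, 13 of 44 matrix genes rose in early AVFs, then 17 at the middle and 18 at the last time, and none fell. Of 24 genes of switched SMCs, 13 rose and 1 fell in early AVFs, 7 rose in mid, and 6 in late AVFs. These lists are also expressed by fibroblasts and immune cells. In fibroblasts of contralateral, early, and late libraries the matrix list summed to 76543, 131548, and 74337 CPM, and in SMCs to 19224, 70599, and 51323 CPM.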

How the data were processed

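The study profiled 3 pooled single-cell libraries and 25 bulk vessels. For both, the authors deposited gene counts, UMIs per cell from Cell Ranger 6.0.2 (per the matrix headers) and reads per gene of each vessel. The submitters' processing notes name STAR and the builds mm10 and GRCm38 without a role for each, and no source used here gives the strand setting of the bulk counting. The cells and gene lists were chosen with earlier results of these data known.

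Cells passed limits of 200 to 6000 genes and at most 10% mitochondrial UMIs, no doublet caller was run, and no cell annotation was used. UMIs were summed over the SMCs of a library and divided by the summed total of those SMCs (CPM). Ratios between libraries carry exact conditional 95% intervals for genes with at least 50 UMIs in the pair. Shares of cells with a UMI were compared after thinning each cell to 1000 UMIs, with T cells as a reference. Outside the SMCs, fibroblasts were cells with *Dcn*, *Lum*, and *Pdgfra* at 0.5% of UMIs or more, and T cells had at least 2 UMIs of *Cd3d*, *Cd3e*, and *Cd3g*. Fibroblasts so defined numbered 1756, 346, and 2065 in contralateral, early, and late libraries, so their early levels rest on the fewest cells. Kept cells that met neither the SMC nor the fibroblast rule are in neither share. Genes outside the lists were named by rule, the 12 highest and 12 lowest ratios past 2-fold in each AVF library with at least 50 UMIs and 100 CPM in the higher library and a level at least that of the other cells, leaving out rule, mitochondrial, ribosomal, hemoglobin, and unnamed genes. List genes past 2-fold and genes of the contractile and identity lists could be named too. The values of 1 contractile gene, counted in the totals of its list, are not reported here. The split by 8 pericyte genes was chosen after seeing the data.

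Bulk counts were fitted with edgeR 4.0.16 (quasi-likelihood, TMM scaling, R 4.3.3, limma 3.58.1) on all 25 vessels, for the 12673 of 56980 genes with a mean normalized count of at least 100. Each bulk library is 1 vessel, so p-values measure the spread between vessels. The common dispersion was 0.710. Alternatives were DESeq2 1.42.0, its size factors, another count filter, sex as a term, and each vessel left out. Python 3.11.15 (numpy 2.4.6, scipy 1.17.1, pandas 2.3.3, matplotlib 3.10.9) served for the rest. On simulated counts of early AVFs and contralateral veins, the bulk fit over 12673 genes recovered 28.6% of genes changed by 2 and 57.3% of those changed by 3 on the log2 scale, with 0 false calls.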

Additional observations from a re-analysis of the deposited data

Results flagged for a closer look

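Among 83 groups of 5 to 8 vessels over 21 genes, 16 held a vessel far from the others by Dixon's gap. For normally distributed values chance gives about 1 in 20 groups. CPM were taken here without logs, so that rate need not hold. Late AVF 23 stood high in 3 genes, with 333 CPM of *Myh11*, 164 CPM of *Synpo2*, and 374 CPM of *Des*. Early AVF 5 stood high with 1403 CPM of *Myl9*, 35.3 CPM of *Lmod1*, and 35.6 CPM of *Wif1*. Early AVF 7 had the lowest *Actg2* (27.1 CPM) and the highest *Frzb* (76.2 CPM) of its group, and early AVF 10 the highest *Cpxm2* (61.7 CPM). Contralateral vein 632 stood high in *Actg2* (2276 CPM) and *Synpo2* (720.3 CPM), contralateral vein 28 in *Rgs5* (760.0 CPM), and contralateral vein 27 in *Wif1* (0.157 CPM, its only counts). Contralateral vein 31 was low in *Npnt* (22.2 CPM). Mid AVF 13 was high in *Itga8* (300.5 CPM) and mid AVF 12 in *Des* (762 CPM).

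The change from contralateral veins differed between late and early AVFs, by edgeR's test of late against early vessels, for 4 of the 21 genes examined. The difference on the log2 scale, late minus early, was 2.25 for *Myh11*, 1.84 for *Itga8*, 2.14 for *Notch3*, and 3.57 for *Cpxm2*. Outside these 21, *Smtn* (1.05, edgeR adjusted p = 0.00853), *Ppp1r12b* (1.34, 0.00506), and *Ace* (1.74, 0.00241) were also called higher in late than in early AVFs.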

How the results depend on the processing

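With the muscle share at 2% of UMIs or more, SMCs made up 0.332%, 2.23%, and 5.34% of contralateral, early, and late cells, and with at most 5% mitochondrial UMIs 0.427%, 2.07%, and 5.10%. With at most 25% the contralateral share was 0.893%, and without an upper gene limit the early and late shares were 4.36% and 8.02%, both limits chosen after seeing the data. The order of the 3 shares held under each of these. Without an upper gene limit the contractile median in early SMCs was −0.50. At a muscle share of 2%, 116 genes were higher and 123 lower in early SMCs, 233 lower in late SMCs, and 30 lower in late than early SMCs. Of 96 named single-cell ratios, 74 had UMIs in both libraries without the cells with pericyte genes and 88 at a muscle share of 2%. Of these, 52 and 41 moved outside their intervals, against 8 to 28 of 96 under the other 4 settings. Ratios without a UMI in 1 library were left out, among them *Frzb*, *Sost*, *Mylk4*, and *Ace* without the cells with pericyte genes. The sign changed for *Rgs5* in late SMCs without the cells with pericyte genes (1.03, on 4 contralateral UMIs), *Cnn1* in early SMCs at 2% (−0.01), and *Hspb1* in early SMCs without an upper gene limit (−0.27). By DESeq2, 4 identity genes fell in mid AVFs. Leaving out 1 vessel, the contractile genes that fell numbered 15 to 16, 15 to 15, and 11 to 15 at the 3 times, and the identity genes 4 to 10, 2 to 3, and 1 to 2. Over all genes DESeq2 called 1243 higher and 1197 lower in early, 624 and 794 in mid, and 568 and 726 in late AVFs, and 169 and 584 in late against early AVFs. With edgeR's own count filter 2793, 2272, and 2209 genes were called higher at the 3 times, and 180 lower in late than early AVFs. Leaving out late AVF 16, 17, 19, 23, or 24, the genes lower in late than early AVFs numbered 2, 5, 5, 96, and 1, and those higher 30, 29, 35, 55, and 40. Leaving out early AVF 3, 5, or 6, those lower numbered 131, 100, and 132, and the higher ones 55 and 56 without early AVF 3 or 5, 140 without early AVF 10, and 139 without contralateral vein 28. Without late AVF 16, 17, or 24, 199, 185, and 182 genes fell in late AVFs, and without mid AVF 12, 14, or 15, 272, 272, and 268 fell in mid AVFs. Of 80 results on single bulk genes, 76 to 79 kept their call under each of 4 settings of the fit, and the cause of the others was not tested. No paired analysis was possible because the bulk groups share no replicate numbers.

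Each condition had 1 single-cell library, so differences between SMCs of 2 libraries carry no replicate error. Contralateral SMCs numbered 41, with 357686 UMIs in all, and genes near 1 UMI there have wide intervals. Single-cell and bulk vessels were taken on different days.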

Other observations

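SMCs with and without pericyte genes also held unequal levels of genes outside that list. In contralateral veins the 21 such cells held 5058 CPM of *Mgp* and 519 CPM of *Notch3*, and the other 20 cells 129 and 1011 CPM. In late AVFs the 29 such cells held 2279 CPM of *Rgs5*, 16871 CPM of *Mgp*, and 605 CPM of *Sost*, and the other 389 cells 69.9, 17325, and 468 CPM. Of the *Rgs5* UMIs in kept cells of late AVFs, SMCs held 29.0% and fibroblasts 39.2%.

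Cardiac muscle genes were found in a few contralateral SMCs. *Tnnt2*, a troponin of heart muscle, stood at 112 CPM in 2 cells and *Actc1*, cardiac actin, at 69.9 CPM in 4 cells, and the 5 cardiac genes summed to 182, 4.61, and 3.96 CPM in contralateral, early, and late SMCs.

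Cell division genes rose in bulk vessels, 6 of 12 in early AVFs and 1 in mid and in late AVFs, while 13 of 175 early SMCs held at least 2 of them before thinning.

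The Notch target *Heyl* stood at 69.9, 109, and 97.7 CPM in contralateral, early, and late SMCs, beside 679, 34.7, and 21.7 CPM of *Notch3*.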
